A study of Homo sapiens with 4 samples.

Results

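The 10 genes described here are NF-kB subunits, their inhibitors and genes that NF-kB induces: NFKB1, NFKB2, RELA, RELB, NFKBIA, NFKBIE, TNFAIP3, BIRC3, TRAF1 and TNFAIP2. They were taken by symbol from the deposited expression table, and all 10 were found once each among 59533 genes. The table holds 1 RNA sequencing library for each of 4 groups. The cells were HCC1937, an established line from a breast carcinoma, and THP-1, a line with monocyte features from an acute leukaemia. Each was sequenced untreated and after DAC (decitabine), which is built into DNA in place of deoxycytidine and traps the enzymes that methylate it. The DAC group was treated at 0.3 µM over 5 days in HCC1937 and at 5 µM over 2 days in THP-1. The labels describe all 4 groups as p53-/- cells infected with the mutant p53-R282W, so by their labels the untreated groups carry it too, and the labels do not state the vector or whether a line was cloned.

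NF-kB transcription factors are dimers built from 5 related proteins, of which REL is the one outside this set. In resting cells IkB proteins such as the products of NFKBIA and NFKBIE hold the dimers in the cytoplasm, and IkB kinases release them after signals such as tumour necrosis factor. Released dimers switch on their own inhibitors and brakes, NFKBIA and TNFAIP3 among them, so the transcripts of these feedback genes are often read as a trace of pathway activity in epithelial and myeloid cells.

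Values are FPKM, which divide the fragments of a gene by its length and by the library's depth. Each group is 1 library, so within a line no replicate error exists and no p-value is printed. Differences are on the log2(FPKM + 1) scale, which understates those of low genes. A gene was kept if either library of the pair reached 1 FPKM, and it was called if the difference reached 2-fold. The intervals beside values are 95% exact counting intervals from estimated reads. They cover counting error only, not the spread between cultures. Estimated depth was 18.7 M reads on genes for each HCC1937 library, 19.5 M for untreated THP-1 and 19.7 M for THP-1 with DAC. Of 12 markers of epithelial and basal breast cells, all were at 1 FPKM or more in both HCC1937 libraries, and 2 and 3 of them were in the THP-1 libraries. All 12 myeloid markers reached it in both THP-1 libraries, and 1 and 2 did in the HCC1937 libraries.

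Promoter windows from RefSeq (GRCh38.p14, 250 bases before to 50 after a start site) were found for 8 of the 10 genes, in 14 windows. RELB and NFKBIE had no entry. The windows were searched on both strands for the kappa B consensus, the sequence NF-kB dimers bind, and for the partly overlapping motif GGNNTTTCC. The consensus was found in 6 windows of 5 genes, against 5.91% of 35114 windows of that length, and GGNNTTTCC in 8 windows of 7 genes, against 6.26%. The sequences below belong to the genes with the widest differences (TNFAIP2, TRAF1 and NFKBIA) and to 3 of the other 4 genes with consensus matches (BIRC3, NFKB1 and NFKB2). They are written 5′ to 3′ on the strand of the gene, and capitals mark matches to either motif. The first 3 stop at the start of the gene in GENCODE 29.
TNFAIP2, chr14:103123211-103123441, plus strand: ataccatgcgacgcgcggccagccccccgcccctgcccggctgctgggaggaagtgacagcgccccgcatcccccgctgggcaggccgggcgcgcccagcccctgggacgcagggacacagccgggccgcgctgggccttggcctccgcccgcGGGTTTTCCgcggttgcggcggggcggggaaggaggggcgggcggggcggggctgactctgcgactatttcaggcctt
TRAF1, chr9:120929174-120929421, minus strand: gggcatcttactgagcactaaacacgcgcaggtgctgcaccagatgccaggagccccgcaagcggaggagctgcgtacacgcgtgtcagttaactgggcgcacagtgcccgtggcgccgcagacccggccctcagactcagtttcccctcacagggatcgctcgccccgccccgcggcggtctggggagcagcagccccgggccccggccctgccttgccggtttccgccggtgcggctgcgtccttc
NFKBIA, chr14:35404750-35404999, minus strand: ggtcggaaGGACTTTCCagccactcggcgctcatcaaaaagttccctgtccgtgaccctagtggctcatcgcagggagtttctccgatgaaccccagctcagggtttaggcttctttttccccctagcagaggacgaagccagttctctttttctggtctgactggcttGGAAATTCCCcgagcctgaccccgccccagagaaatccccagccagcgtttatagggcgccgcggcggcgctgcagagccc
BIRC3, chr11:102317275-102317368, plus strand: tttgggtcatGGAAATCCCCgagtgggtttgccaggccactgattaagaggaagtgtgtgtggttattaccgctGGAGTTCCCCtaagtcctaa
NFKB1, chr4:102501300-102501329, plus strand: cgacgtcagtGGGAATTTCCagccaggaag
NFKB2, chr10:102394490-102394519, plus strand: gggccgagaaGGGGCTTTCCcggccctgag

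The TNFAIP2 window held 1 match, to GGNNTTTCC only, 97 bases before the start, and 35 CpG dinucleotides, more than 85.9% of all windows. TRAF1 has 3 windows in the table. The one printed held neither motif and 32 CpG, and the other two held 3 and 4 CpG, one of them with a GGNNTTTCC match after its start site. The NFKBIA window held 1 consensus match, 81 bases before the start, and 2 matches to GGNNTTTCC, 1 of them inside that same site. TNFAIP3 held 2 consensus matches, 67 and 55 bases before the start, and BIRC3 held 2, 199 and 135 bases before it. NFKB2 also has 3 windows, and the one at the start of the gene held neither motif. The NFKB2 stretch printed lies inside the gene, before a later start site, in a window with 3 consensus matches. Of those 3, 2 overlap each other, starting 107 and 106 bases before that start site. The last NFKB2 window held 2 consensus matches. NFKB1 has a further window, which held neither motif. The median window has 14 CpG. A match is a description of letters and not a bound site, and these libraries measure neither binding nor methylation.

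None of the 4 subunits was called in either line. Most kept genes were not called either, with 10.3% higher and 1.44% lower in HCC1937, and 1.14% and 0.364% in THP-1. As deposited, the levels of the subunits with DAC were close to those of the untreated library of the same line. NFKB1, whose p105 product is processed to the p50 subunit, stood at 17.9 FPKM untreated and 15.98 with DAC in HCC1937, and at 17.6 and 19.96 in THP-1. The ratio of DAC to untreated was 0.891 (interval 0.836 to 0.948) in HCC1937 and 1.13 (1.05 to 1.22) in THP-1. As deposited, the NFKB1 level was therefore lower in the first line and higher in the second by more than counting error. RELA, the p65 subunit, which carries an activation domain, stood at 28.7 and 27.3 FPKM in HCC1937 and at 31.8 and 31.2 in THP-1. Its ratios of 0.950 (0.902 to 1.00) and 0.981 (0.920 to 1.04) were within counting error in both lines on the values as deposited. In HCC1937 the RELA log2 difference of -0.07 was -0.21 under median-of-ratios scaling and -0.37 under upper-quartile scaling. That of NFKB1 there, -0.16 as deposited, was -0.30 and -0.45.

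The partners of the non-canonical pathway were also close to their untreated levels. NFKB2, whose p100 product is processed to p52, stood at 27.0 and 29.9 FPKM in HCC1937 and at 47.4 and 49.99 in THP-1, with ratios of 1.10 (1.04 to 1.17) and 1.05 (1.00 to 1.11). RELB, which pairs with p100 and p52, stood at 21.3 and 22.8 FPKM in HCC1937 and at 30.1 and 34.2 in THP-1, with ratios of 1.07 (0.993 to 1.16) and 1.14 (1.06 to 1.23). In HCC1937 the log2 differences of NFKB2 (0.14) and RELB (0.10) turned negative when the pair was rescaled, to -0.16 and -0.20 under upper-quartile scaling. The sum of the 4 subunits was 94.9 FPKM untreated and 95.9 with DAC in HCC1937, and 127 and 135 in THP-1.

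The inhibitors differed between conditions in HCC1937 and little in THP-1. NFKBIA, the IkB-alpha that is resynthesised first after activation, stood at 140.4 FPKM (136.9 to 143.9) untreated and 99.6 (96.7 to 102.6) with DAC in HCC1937, a ratio of 0.709 (0.682 to 0.737). In THP-1 it stood at 52.2 and 55.4 FPKM, a ratio of 1.06 (0.990 to 1.14). The HCC1937 libraries did not overlap in their counting intervals, and the log2 difference of -0.49 is short of the 2-fold rule. NFKBIE, the IkB-epsilon, went the other way in HCC1937, at 23.6 FPKM untreated and 29.8 with DAC (1.27, interval 1.17 to 1.37). Its log2 difference there, 0.33 as deposited, was 0.19 under median-of-ratios and 0.03 under upper-quartile scaling. NFKBIE stood at 39.6 and 37.3 FPKM in THP-1 (0.942, interval 0.884 to 1.00). Within a library, a ratio of 2 genes does not depend on how the pair is scaled. Between the lines such ratios also depend on gene lengths, which may differ between the columns. NFKBIA per NFKBIE was 5.96 untreated and 3.34 with DAC in HCC1937, and 1.32 and 1.49 in THP-1. NFKBIA per summed subunits was 1.48 and 1.04 in HCC1937, and 0.411 and 0.409 in THP-1.

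**Figure D1:**
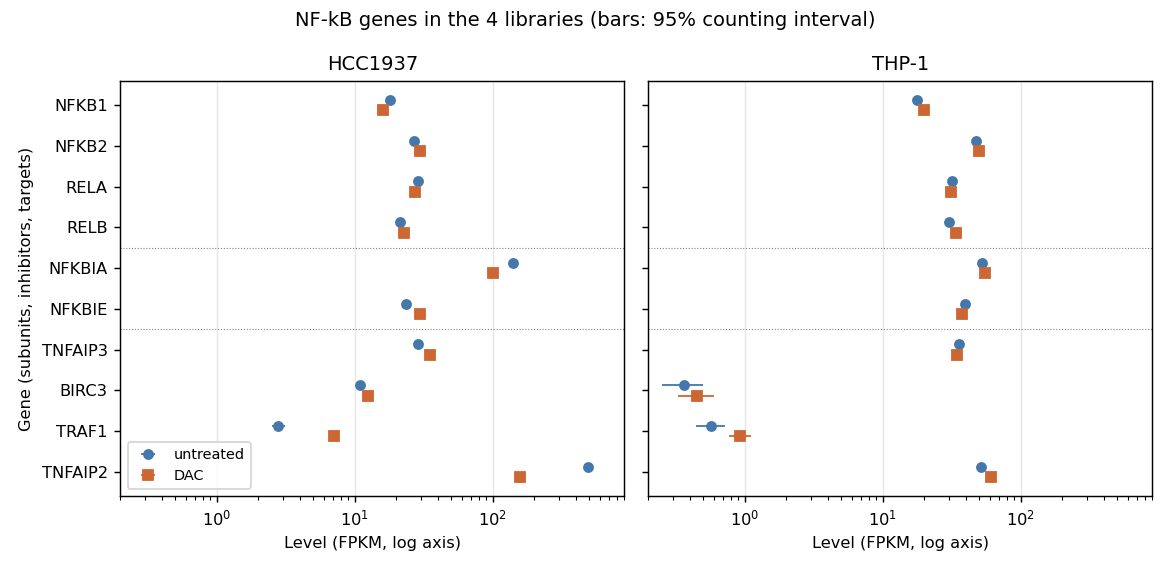
Level of each gene in FPKM on a log axis, HCC1937 left and THP-1 right, with circles for the untreated library and squares for the DAC library; bars are 95% counting intervals, often smaller than the symbol. TNFAIP2 and NFKBIA lie to the left of their untreated values in HCC1937 (493 to 157 and 140.4 to 99.6 FPKM), and BIRC3 and TRAF1 lie below 1 FPKM in both THP-1 libraries.

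Of the induced targets, TNFAIP2 showed the widest difference of the 10 genes. TNFAIP2, named for its induction by tumour necrosis factor and active in membrane protrusions, stood at 493 FPKM (488 to 497) untreated and 157 (154 to 159) with DAC in HCC1937. The DAC library was 3.15-fold lower (3.09 to 3.21), a log2 difference of -1.65. TNFAIP2 ranked 62nd by level among the 14058 genes kept in HCC1937 when untreated and 235th with DAC, and only 25 kept genes had a more negative difference. In THP-1 it stood at 51.1 FPKM untreated and 60.8 with DAC, a ratio of 1.19 (1.14 to 1.24), so the lines went in opposite directions. In bulk RNA, fewer cells making a transcript and less transcript per cell cannot be told apart.

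TRAF1, an adaptor of tumour necrosis factor receptors, was the other called gene and was higher with DAC. It stood at 2.79 FPKM (2.50 to 3.10) untreated and 7.11 (6.642 to 7.602) with DAC in HCC1937, a ratio of 2.55 (2.24 to 2.89) and a log2 difference of 1.10. That difference was 0.98 under median-of-ratios scaling and 0.85 under upper-quartile scaling, so it was short of 2-fold under both. In THP-1 TRAF1 was at 0.57 and 0.93 FPKM, below the filter in both libraries, with a ratio of 1.63 (1.21 to 2.24) on 70 and 116 estimated reads.

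TNFAIP3 and BIRC3 differed less. TNFAIP3, the ubiquitin-editing enzyme A20 that shuts off IkB kinase signalling, stood at 28.6 FPKM untreated and 35.3 with DAC in HCC1937 (1.23, interval 1.17 to 1.30) and at 35.5 and 34.3 in THP-1 (0.966, interval 0.919 to 1.014). Its log2 difference of 0.29 in HCC1937 was -0.01 under upper-quartile scaling. BIRC3, the ubiquitin ligase cIAP2, stood at 10.9 and 12.5 FPKM in HCC1937 (1.15, interval 1.07 to 1.23), a log2 difference of 0.18 that was -0.10 under upper-quartile scaling. In THP-1 BIRC3 was at 0.36 and 0.45 FPKM, with a ratio of 1.25 that counting error leaves between 0.800 and 2.01. In GENCODE 29 (hg38) TNFAIP2 lies at chr14:103123442-103137439, TRAF1 at chr9:120902393-120929173, TNFAIP3 at chr6:137867188-137883312 and BIRC3 at chr11:102317450-102339403. The inhibitor genes NFKBIA and NFKBIE lie at chr14:35401511-35404749 and chr6:44258166-44265788. The subunit genes NFKB1, NFKB2, RELA and RELB lie at chr4:102501329-102617302, chr10:102394110-102402529, chr11:65653596-65663094 and chr19:45001430-45038198. Exons of TNFAIP3 share 95 bases, and those of RELA 9 bases, with a gene on the opposite strand. The use of strand in counting is not given in the sources used here, so reads in those bases could come from either gene.

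Counted over the set, HCC1937 had 1 of 10 genes called higher, against 10.3% of the 14058 genes kept in that line, and 1 of 10 called lower, against 1.44%. All 10 passed the filter there. THP-1 had 8 of 10 genes pass the filter and 0 called in either direction, against 1.14% of 12075 kept genes higher and 0.364% lower. The median log2 difference of the 10 genes in HCC1937 was 0.12, beside 0.19 for all kept genes, and that of the 8 in THP-1 was 0.08, beside 0.07. Rescaling mattered in HCC1937. Of all kept genes, 1452 were called higher and 202 lower as deposited. Median-of-ratios scaling called 1238 and 293, and upper-quartile scaling called 1063 and 480, which moved the median of all genes from 0.19 to -0.06 and that of the 10 genes from 0.12 to -0.18. Relative to the all-gene median as deposited, TNFAIP2 stood at -1.83, NFKBIA at -0.68, NFKB1 at -0.34, and TRAF1 at 0.91.

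**Figure D2:**
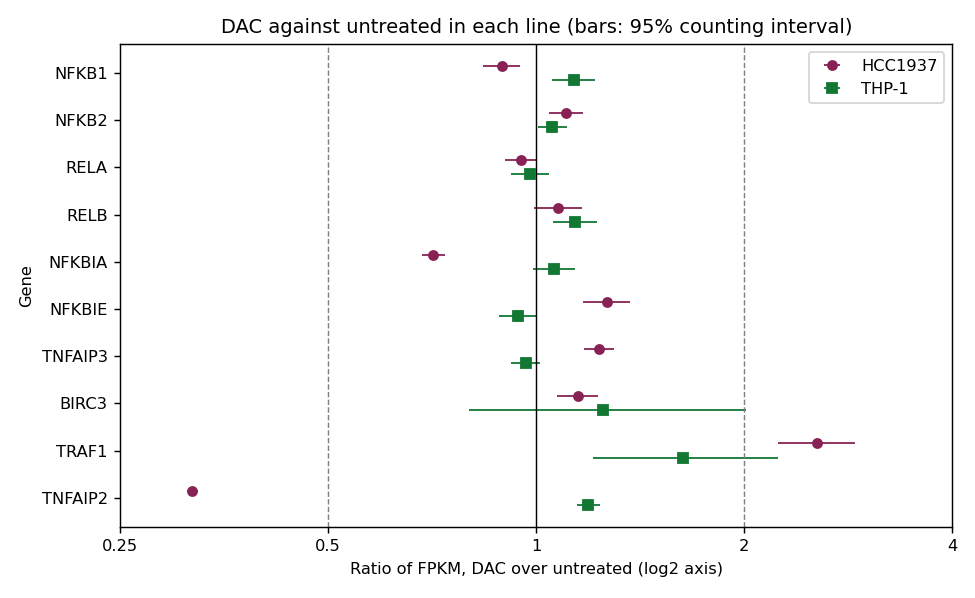
Ratio of the DAC to the untreated FPKM for each gene on a log2 axis, circles for HCC1937 and squares for THP-1; bars are 95% counting intervals, the solid line marks no difference and dashed lines mark 2-fold. In HCC1937 TNFAIP2 (0.318) and TRAF1 (2.55) lie past 2-fold, and in THP-1 the ratios run from 0.942 (NFKBIE) to 1.63 (TRAF1).

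Treating the lines as replicates of a DAC effect gave no call. limma, fitted to all 13984 genes with values in both lines and 1 FPKM or more in any library, with line as a block, called 0 genes higher (0%) and 0 lower (0%) at a Benjamini-Hochberg adjusted p of 0.05, with 565 genes at an unadjusted p under 0.05. None of the 10 genes was among those 565, and their adjusted p-values ran from 0.695 to 0.994. TRAF1, higher in both lines, had a fitted log2 difference of 0.70 with a standard error of 0.26 (adjusted p = 0.695 by limma). TNFAIP2 had -0.70 with a standard error of 0.48 (adjusted p = 0.695 by limma). The error in this fit draws on a variance estimated over all genes, which carried 3.28 of the 4.28 degrees of freedom. The rest is how far the lines differ in their response. A gene that differed in a single line therefore gets a wide error. The dose and the time of DAC differed between the lines, so this fit does not separate line from schedule, and a test of the difference between the lines has no degrees of freedom left.

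The make-up of the set by FPKM differed between the lines and, in HCC1937, between the libraries. The THP-1 columns may rest on other gene lengths than the HCC1937 columns. Shares set side by side between the lines therefore also depend on those lengths. As a share of the summed FPKM of the 10 genes, TNFAIP2 made up 62.1% in untreated HCC1937 and 35.9% with DAC, and 16.7% and 18.7% in THP-1. The sum itself was 794 and 437 FPKM in HCC1937 and 306 and 325 in THP-1. Leaving TNFAIP2 out, it was 301 and 280.2 FPKM in HCC1937 and 255 and 264 in THP-1. Within the 4 subunits, the NFKB2 share was 28.5% and 31.1% in HCC1937 and 37.4% and 36.9% in THP-1, and the RELA share was 30.2% and 28.4% in HCC1937 and 25.1% and 23.1% in THP-1.

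**Figure D3:**
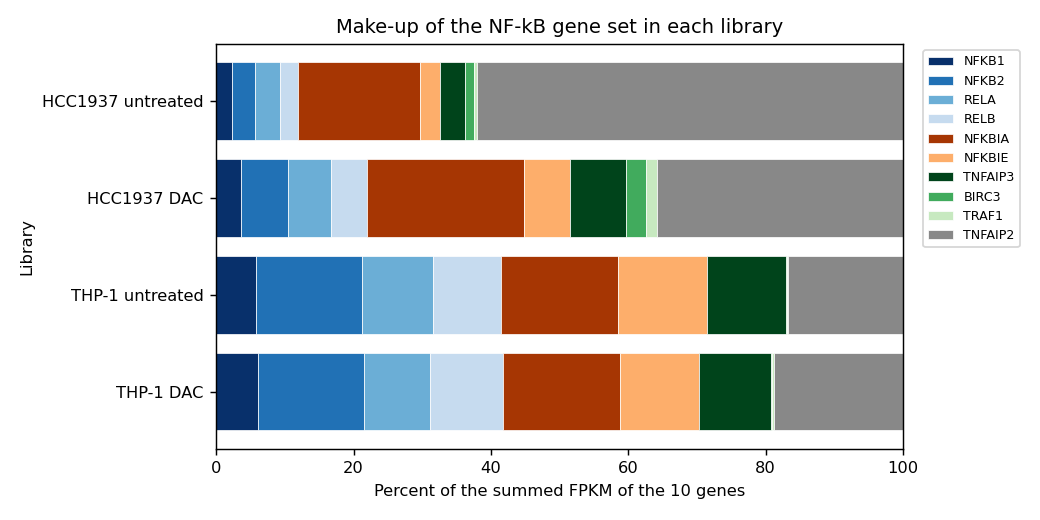
Each bar is 1 library, divided by the percent of the summed FPKM of the 10 genes that each gene contributes; blues are subunits, oranges inhibitors, greens and grey targets. The grey TNFAIP2 segment takes 62.1% in untreated HCC1937, 35.9% with DAC, and 16.7% and 18.7% in the THP-1 libraries.

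The order of levels also differed between untreated lines. In HCC1937 it ran from TNFAIP2 and NFKBIA through RELA, TNFAIP3, NFKB2, NFKBIE, RELB, NFKB1 and BIRC3 to TRAF1. RELA, TNFAIP3 and NFKB2 overlapped as neighbours in their counting intervals, as did NFKBIE and RELB. In THP-1 NFKBIA and TNFAIP2 headed the order at overlapping levels, followed by NFKB2, NFKBIE, TNFAIP3, RELA, RELB and NFKB1, with TRAF1 and BIRC3 far below. RELA and RELB overlapped there, and so did TRAF1 and BIRC3. BIRC3 stood at 10.9 FPKM in untreated HCC1937 and at 0.36 in untreated THP-1. The THP-1 columns give no value for 36093 of the 59533 genes and may rest on other gene lengths, so levels are set side by side between lines without a fold.

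The other genes of the pathway were counted over 6 lists with 92 genes outside the set. In HCC1937, 76 were kept, with 11 called higher and 6 lower, and a median log2 difference of 0.14, beside 10.3% higher, 1.44% lower and a median of 0.19 over all kept genes. In THP-1, 70 were kept, with 1 called higher and 0 lower, and a median of 0.13, beside 1.14%, 0.364% and 0.07. Of the other subunit and IkB genes 0 of 5 kept in HCC1937 and 0 of 6 in THP-1 were called. NFKBIZ, a nuclear IkB protein, stood at 12.2 and 5.59 FPKM in HCC1937 and just missed the rule at a ratio of 0.460 and a log2 difference of -0.997, passing it at -1.13 and -1.27 under the 2 rescalings. REL stood at 0.45 and 0.50 FPKM in HCC1937 and at 3.41 and 4.03 in THP-1. Of the IkB kinases and their activators 0 of 21 were called in either line, with medians of 0.22 in HCC1937, which turned to -0.06 under upper-quartile scaling, and 0.12 in THP-1. In HCC1937, 1 of these 21 was below 1 FPKM untreated and so had to come out higher. TAB2, an adaptor of the kinase TAK1, stood at 7.31 and 12.1 FPKM in HCC1937, and MAP3K8 at 14.6 and 9.08. MAP3K14, the kinase NIK of the non-canonical pathway, stood at 7.27 and 10.7 FPKM there.

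Among deubiquitinases and other brakes, 0 of 10 kept in HCC1937 were called higher and 1 lower, beside 10.3% and 1.44% of all kept genes. In THP-1, 0 of 10 were called, beside 1.14% higher and 0.364% lower. The lower one in HCC1937 was ZC3H12A, the RNase regnase-1 that degrades inflammatory transcripts, at 59.3 and 23.9 FPKM (ratio 0.404, interval 0.379 to 0.430). The A20-binding proteins went apart in HCC1937, TNIP1 at 127 and 76.4 FPKM and TNIP2 at 8.95 and 17.6, both short of 2-fold, though TNIP1 passed it on the lower side at -1.03 under upper-quartile scaling. In THP-1 ZC3H12A stood at 27.9 and 30.5 FPKM. The median of this list in HCC1937, 0.26, was -0.03 under upper-quartile scaling.

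Upstream of the pathway, 0 of 8 kept receptors were called in THP-1, beside 1.14% of all kept genes higher and 0.364% lower. In HCC1937, 3 of 8 kept receptors were called higher and 0 lower, beside 10.3% and 1.44%. TNFRSF1B, a receptor of tumour necrosis factor that signals through TRAF proteins, stood at 1.68 and 10.3 FPKM (ratio 6.11, interval 5.03 to 7.502). CD40, listed at 0 untreated, stood at 2.88 FPKM with DAC, and NGFR at 5.71 and 14.7. NGFR fell short of 2-fold at 0.95 under upper-quartile scaling, where TNFRSF12A (206 and 114 FPKM) passed it on the lower side at -1.16. Of the 8 kept receptors, 2 were below 1 FPKM untreated and so had to come out higher. In THP-1 CD40 stood at 6.56 and 10.4 FPKM. Ligands, beside the same all-gene shares, had 2 of 7 kept genes called higher and 1 lower in HCC1937, and 0 of 6 called in THP-1. LTA and 1 other kept ligand were below 1 FPKM in untreated HCC1937 and so had to come out higher. TNF stood at 3.19 and 9.01 FPKM, LTA, which encodes lymphotoxin alpha, at 0.37 and 2.77, and the interleukin gene IL1B at 26.9 and 7.84. TNF fell just under 2-fold under upper-quartile scaling, where LTB (36.5 and 21.5 FPKM) passed it on the lower side at -1.04. TNF stood at 29.99 and 29.2 FPKM in THP-1.

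The list of other known NF-kB targets went both ways in HCC1937, where 10.3% of all kept genes were called higher and 1.44% lower. Of this list, 6 of 27 kept genes were called higher and 4 lower, with a median of -0.33. Median-of-ratios scaling gave 6 higher and 5 lower, and upper-quartile scaling 4 higher and 6 lower, with NFKBIZ joining the lower side under both and IRF1, at -1.11, under upper-quartile scaling. PTX3 (0.91) and MMP9 (0.88) were short of 2-fold under upper-quartile scaling. The 4 lower genes were LCN2, an iron-siderophore binding protein (2133 and 696 FPKM), the neutrophil chemokines CXCL1 (52.5 and 17.1) and CXCL8 (8.43 and 3.03), and the mitochondrial superoxide dismutase SOD2 (26.9 and 10.2). Higher were IL6 (2.12 and 15.9 FPKM), EBI3, a subunit of interleukin-27 and interleukin-35 (3.19 and 15.9), CCL5 (19.6 and 70.1), CCL20 (1.27 and 5.76), PTX3 (3.15 and 8.30) and the protease MMP9 (2.59 and 6.83). In HCC1937, CXCL1, CXCL8, SOD2, CCL20, PTX3 and MMP9 are named beyond the naming rule, after their values were seen. ICAM1 (54.7 and 60.5 FPKM) and IER3 (177 and 171) were not called in HCC1937 and are likewise named after their values were seen. REL, given earlier for both lines, is also outside the naming rule. In THP-1, 1 of 21 kept targets was called higher and 0 lower, beside 1.14% and 0.364% of all kept genes. The called gene was MMP9, at 7.97 and 19.8 FPKM (ratio 2.48, interval 2.20 to 2.82), and the list median was 0.21. Of those 21 targets, 2 others were below 1 FPKM untreated and so had to come out higher.

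**Figure D4:**
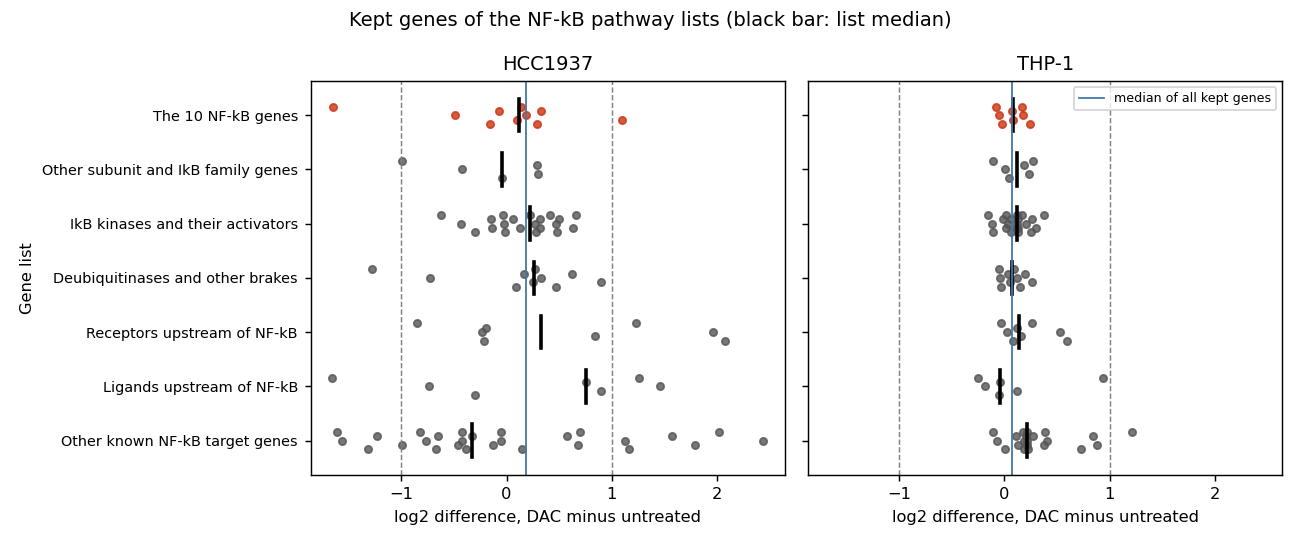
log2 difference (DAC minus untreated, on FPKM + 1) of every kept gene in the 10-gene set (red) and in 6 other pathway lists (grey), HCC1937 left and THP-1 right; black bars are list medians, the blue line is the median of all kept genes, and dashed lines mark 2-fold. HCC1937 points spread from -1.66 (IL1B) to 2.43 (IL6), while in THP-1 only MMP9 passes 2-fold (1.21).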

How the data were processed

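RNA was sequenced from 4 libraries, 1 per group. The submitters' processing notes name the tools FastQC, cutadapt, STAR and HTSeq and the build hg38. Versions, annotation and the step to the final unit are not given in the sources used here. No unit stands in the deposited table, and its columns were read as FPKM made by the authors. For genes with 50 to 250 exon bases in GENCODE 29, 91.7% to 93.9% of low values fell on whole reads within 0.1, which gave the depth. Lines of 76 repeated symbols (1079 lines) were left out. Reads per gene were estimated from FPKM, depth and GENCODE exon length (HCC1937) or longest coding transcript (THP-1, approximate), for exact intervals of a ratio. The differences use a pseudocount of 1. The limma fit used limma 3.58.1 in R 4.3.3 with an intensity trend, on log2(FPKM + 1) over all genes, with Benjamini-Hochberg adjustment; the remaining steps ran in Python 3.11.15 with scipy 1.17.1, numpy 2.4.6, pandas 2.3.3 and, for plots, matplotlib 3.10.9. The procedures were tested on simulated data with the same planted changes in both lines. That test does not cover lines that respond differently. Alternatives rescaled the pair by median-of-ratios or upper-quartile scaling, or changed the filter, the pseudocount, the size rule, or the block, trend and scaling of limma. Median-of-ratios scaling used genes at 1 FPKM or more in both libraries. That gene set was settled after the counts of called genes under 3 such sets had been seen, and was taken for being closest to counts from earlier work on these data. The sets not taken, and upper-quartile scaling over kept genes, were added after seeing the data and are given in the closing section. The 10 genes are all named. From each other list and line, up to 4 called genes and up to 3 others at 5 FPKM or more with the largest differences could be named. The members and lists were chosen with earlier results of these data known. The level of the introduced gene is not reported here.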

Additional observations from a re-analysis of the deposited data

Results flagged for a closer look

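2 of the 10 genes moved in opposite directions in the 2 lines, each by more than counting error in its line on the values as deposited. The log2 difference of TNFAIP2 was -1.65 in HCC1937 and 0.25 in THP-1, a gap of -1.89, and that of NFKB1 was -0.16 and 0.17, a gap of -0.33. Both genes had these signs in each line under all 5 rescalings run, but NFKB1 in THP-1 then lay between 0.08 and 0.14. The counting intervals rest on the values as deposited and were not recomputed after rescaling. With 1 library per group the difference between the lines was not tested, and line, dose and time of DAC cannot be told apart.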

How the results depend on the processing

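The call of TNFAIP2 as lower in HCC1937 was kept under all 8 alternatives planned for that line and 3 added after seeing the data, and no gene of the set was called in THP-1 under the same 11. The call of TRAF1 as higher was lost under median-of-ratios scaling, upper-quartile scaling and a pseudocount of 10, each giving 0 of 10 genes called higher. At 10 the TRAF1 log2 difference was 0.42, since a larger pseudocount shrinks low genes. The added settings were median-of-ratios scaling over all genes above 0, the same over kept genes above 0, and upper-quartile scaling over kept genes. They also gave 0 of 10 called higher in HCC1937 (TRAF1 0.87, 0.92 and 0.96), and called 451, 360 and 317 genes lower there, against 293 with the gene set used in the report. The choice of gene set therefore moves that count, and the set used moves it least from the values as deposited. Under rescaling, 14 values of the 10 genes changed sign in HCC1937 (NFKB2 and RELB under all 5, BIRC3 under 3, TNFAIP3 under upper-quartile scaling) and 3 did in THP-1, all under the added median-of-ratios sets (NFKB2 under both at -0.02 and -0.003, NFKBIA at -0.01). Over all genes, HCC1937 counts of higher and lower genes (1452 and 202) were 550 and 108 with a filter at 5 FPKM, 2323 and 383 with a pseudocount of 0.1, 131 and 31 with a pseudocount of 10, and 3084 and 831 at 1.5-fold. The lower count was 480 under upper-quartile scaling and 120 with a counting interval wholly beyond 2-fold. THP-1 counts (138 and 44) were 42 and 4 with a filter at 5 FPKM, 297 and 74 with a pseudocount of 0.1, 3 and 0 with a pseudocount of 10, 398 and 121 at 1.5-fold, and 52 and 3 with a counting interval wholly beyond 2-fold. limma called 0 genes under each of its 7 alternatives, which from so few libraries does not show that no gene differed. Counted in estimated reads in place of FPKM, TNFAIP2 made up 69.4% and 42.1% of the set in HCC1937 and 23.9% and 26.7% in THP-1. The labels give no replicate numbers, and limma paired the libraries by line, with 0 genes called with or without that block.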
